A study of Mus musculus with 12 samples.

Results

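The Six-family genes encode homeodomain transcription factors named after sine oculis of the fly, and the Eya genes encode their coactivators, named after eyes absent. Eya proteins do not bind DNA themselves. They are brought to target genes by a Six-family protein, and they also carry a tyrosine phosphatase domain. The network is best known from the cranial placodes, the thickenings of head ectoderm that give rise to the inner ear, the olfactory epithelium, the lens and cranial sensory ganglia, and from muscle and kidney precursors. Described here are 9 of the 24060 genes listed for these tumors, namely Six2, Six3, Six4, Six5, Six6, Eya1, Eya2, Eya3 and Eya4. They form a list of named genes, with no threshold on their values.

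The 12 tumors sequenced were rhabdoid tumors that formed in mice of the genotype P0-CreC;Smarcb1flox/flox on the FVB/N background. In this model the P0 promoter drives Cre recombinase in early neural crest cells, and recombination removes Smarcb1, a core subunit of the SWI/SNF chromatin remodeling complex. They arose without treatment and were labelled by where they grew, with 4 retro-orbital tumors, 3 tumors of the cheek, 3 of the meninges, 1 of the vestibular nerve and 1 of the trigeminal nerve. All carried the same genotype, there was no normal tissue among them, and animal ages are not given in the labels. The tumors were frozen whole, so each value is from a mixture of tumor and host cells, in which fewer cells of a type and less RNA per cell cannot be told apart. Cheek tumor 1 and meninges tumor 1, cheek tumors 2 and 3, and retro-orbital tumor 3 and the trigeminal nerve tumor have identifiers that begin alike. Whether each of these pairs came from 1 animal is not stated, and p-values measure the spread between these tumors.

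Smarcb1, the targeted gene, ranged from 1.70 RPKM in the vestibular nerve tumor to 6.31 RPKM in meninges tumor 3 (median 4.61 RPKM). RPKM is the number of reads scaled to transcript length and to the mapped reads of the tumor, so that levels of different genes can be compared. Because the value covers the whole gene and host cells keep their copy, it does not measure the recombined allele. The fragment totals behind the values, worked out from the smallest steps of the RPKM scale, ran from 13205675 in cheek tumor 3 to 57128190 in retro-orbital tumor 3. Across 15040 genes, cheek tumors 2 and 3 were the most alike pair (Pearson's r = 0.984 across genes, which are not independent replicates, against 0.921 for the next pair), and retro-orbital tumor 3 had the lowest median correlation with the other tumors (0.816).

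On GRCm38, the mm10 assembly, Six4 lies on chromosome 12 (73099609 to 73113456, minus strand) and Six6 on the same chromosome (72939892 to 72944899, plus strand), 154.709 kb away. Six2 (85684277 to 85688274, minus strand) and Six3 (85613608 to 85629302, plus strand) are neighbors on chromosome 17, with 54.974 kb between them. Six5 lies on chromosome 7 (19094594 to 19098549, plus strand). The Eya genes are each on a chromosome of their own, Eya1 on chromosome 1 (14168954 to 14310235, minus strand), Eya2 on chromosome 2 (165595032 to 165771727, plus strand), Eya3 on chromosome 4 (132638987 to 132724765, plus strand) and Eya4 on chromosome 10 (23102963 to 23350786, minus strand). Exons of Six3 overlap those of the opposite-strand gene Six3os1, and exons of Six6 overlap those of the opposite-strand gene 4930447C04Rik. The library kit kept strand, but the strand setting of the counting is not given in the sources used here, so reads of these partners may not be separated.

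Six-family proteins bind a motif known as MEF3, whose core letters TCAGGTT were searched on both strands of the RefSeq promoters on GRCm38.p6, from 250 bases before to 50 bases after each start. A promoter was given for 7 of the 9 genes, and 2 of these 7 held the letters, Six4 and Six6, against 4.07% of all 32851 promoters. The longer form TCAGGTTTC, which contains the core, was found for Six4 alone among the 7 and in 0.429% of all promoters. Both matches are shown because they lie in promoters of genes that encode Six-family factors, each as 29 bases on the strand of its gene with the matched core in capitals, the Six4 match being the core read on the other strand.
Six6: tttttcattctTCAGGTTcagcagtctcc
Six4: ggcctgggggaAACCTGAtcggccagatc
The Six6 window is chr12:72939714-72939742, with the match beginning 157 bases before the RefSeq start. The Six4 window is chr12:73113325-73113353, with its match beginning 97 bases before the RefSeq start. That window lies inside the span given above for Six4, which comes from another annotation, so there the match is not upstream of the gene. These are matches of letters and no binding was measured.

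Among these 5 Six-family genes, Six4 had the highest median and Six5 the next, whereas Six2, Six3 and Six6 were at or below about 1 RPKM in most tumors. Six4, which acts with other Six-family factors in muscle and sensory precursors, had a median of 16.7 RPKM over the 12 tumors, with a lowest value of 1.59 RPKM in meninges tumor 2 and a highest of 47.5 RPKM in the vestibular nerve tumor. Six5, a neighbor of the myotonic dystrophy kinase gene, had a median of 4.33 RPKM (1.96 to 11.1). Six6, a factor of the retina and pituitary, had a median of 0.697 RPKM (0.0184 to 3.61), Six2, a factor of nephron progenitors, had 0.398 RPKM (0.0180 to 4.77), and Six3, a factor of the eye field and forebrain, had 0.141 RPKM (0 to 2.12).

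Levels were compared within tumors as differences of log2(RPKM + 1), with exact two-sided sign-flip permutation tests adjusted over 16 pairs, 10 of Six-family genes and 6 of Eya genes. Six4 exceeded Six5 by 1.56 ± 1.53 (SD, n = 12, adjusted p = 0.0167, exact permutation test) and was higher in 10 of 12 tumors. The exceptions were retro-orbital tumor 4 (2.05 against 4.60 RPKM) and meninges tumor 2 (1.59 against 8.46 RPKM). Six5 exceeded Six6 by 1.55 ± 1.03 (adjusted p = 0.00312, exact permutation test, higher in 11 of 12 tumors). Six6 and Six2 were not separated (Six2 minus Six6 -0.17 ± 1.02, adjusted p = 0.658, exact permutation test), nor were Six6 and Six3 (Six3 minus Six6 -0.53 ± 0.86, adjusted p = 0.0788, exact permutation test), although the latter pair passed with a pseudocount of 0.1 (adjusted p = 0.0497) and without retro-orbital tumor 3 (adjusted p = 0.0355). Six2 exceeded its neighbor Six3 by 0.37 ± 0.52 (adjusted p = 0.0226, exact permutation test, higher in 10 of 12 tumors). In all, 10 of the 16 pairs passed, 8 of them Six-family pairs.

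**Figure D1:**
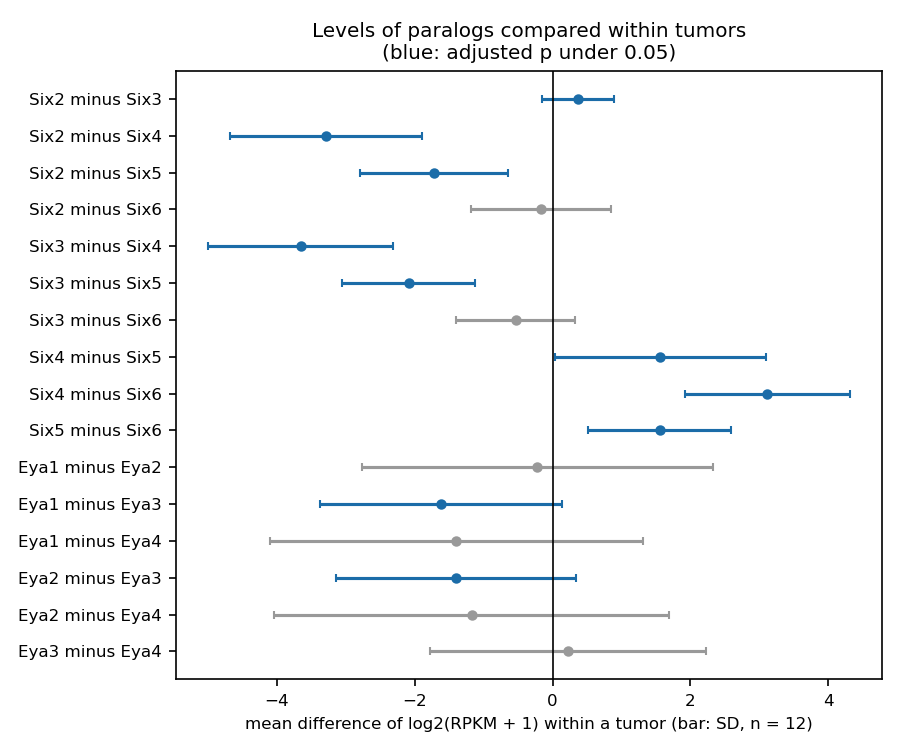
Mean difference of log2(RPKM + 1) within a tumor (x axis) for each of the 16 pairs of Six-family or Eya genes (y axis), with bars for the SD over 12 tumors and blue for an adjusted p under 0.05. Six4 and Six5 stand above Six2, Six3 and Six6, and the Eya pairs have the wider bars, with SDs up to 2.86.

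The Eya genes formed no such fixed order. Eya3, the most evenly expressed of them, had a median of 9.98 RPKM and stayed between 7.63 and 13.9 RPKM. Eya4, known for a role in hearing and the heart, had a median of 6.55 RPKM but ranged from 0.450 RPKM in retro-orbital tumor 4 to 58.4 RPKM in the trigeminal nerve tumor. Eya1, the gene of branchio-oto-renal syndrome in humans, ranged from 0.0705 to 15.2 RPKM (median 1.38), and Eya2, a coactivator in muscle precursors, from 0.382 to 58.5 RPKM (median 1.33). Eya3 exceeded Eya1 by 1.62 on the log2 scale in the mean (Eya1 minus Eya3 -1.62 ± 1.76, adjusted p = 0.0226, exact permutation test) and was higher in 8 of 12 tumors, Eya1 being higher in 4. It also exceeded Eya2 (Eya2 minus Eya3 -1.40 ± 1.75, adjusted p = 0.0352, exact permutation test), but this call was lost when any of 8 tumors was left out (retro-orbital 1 or 2, cheek 2 or 3, meninges 2 or 3, or either nerve tumor), with adjusted p between 0.0534 and 0.0656 in the exact permutation test, and with cheek tumors 2 and 3 averaged (0.0582). Eya3 and Eya4 were not separated (0.23 ± 2.0, adjusted p = 0.742, exact permutation test), and each was the higher of the pair in 6 tumors.

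The Eya gene with the highest level changed from tumor to tumor. It was Eya4 in 5 tumors (retro-orbital 1, cheek 1, meninges 3 and both nerve tumors), Eya3 in 3 (retro-orbital 2 and 4, meninges 2), Eya2 in 2 (retro-orbital 3, meninges 1) and Eya1 in 2 (cheek 2 and 3). The leading gene made up between 40.5% of the summed Eya RPKM, in cheek tumor 1, and 85.9%, in the trigeminal nerve tumor. The sum itself ran from 10.7 RPKM in retro-orbital tumor 2 to 78.4 RPKM in meninges tumor 1. In the 3 tumors led by Eya3 the sum was 10.7, 22.1 and 16.9 RPKM, the lowest 3 of the 12. Eya4 made up the larger share of a high sum in meninges tumor 3 (78.3% of 69.4 RPKM), and Eya2 did so in meninges tumor 1 (74.7% of 78.4 RPKM), both tumors of the meninges.

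**Figure D2:**
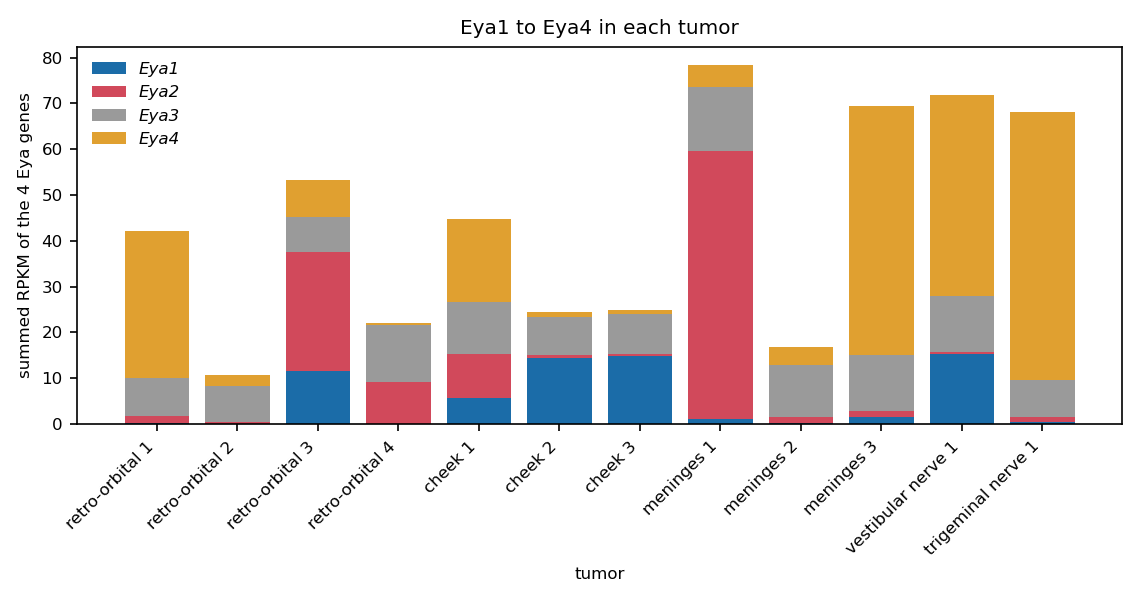
Stacked bars of the RPKM of Eya1, Eya2, Eya3 and Eya4 (y axis) in each of the 12 tumors (x axis). The gray Eya3 segment changes little, from 7.63 to 13.9 RPKM, and the rest of each bar is made up of different Eya genes in different tumors.

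Eya4, Eya2, Eya1 and Six4 varied most over the 12 tumors. The SD of log2(RPKM + 1) was 2.0 for Eya4, 1.83 for Eya2, 1.70 for Eya1 and 1.34 for Six4, against a median of 0.48 over the 15040 genes that reached 1 RPKM in at least 3 tumors. Of those genes, 98.7% had a smaller SD than Eya4, 98% than Eya2, 97.3% than Eya1 and 94.0% than Six4. Eya3 lay at the other end, with an SD of 0.29 and 17.6% of genes below it. Six5 had an SD of 0.63, with 65.8% of genes below it, and the low genes Six2, Six6 and Six3 had 0.71, 0.72 and 0.47 on this scale, which compresses low values. On the RPKM scale, the highest value exceeded the lowest 216-fold for Eya1, 153-fold for Eya2, 130-fold for Eya4, 29.9-fold for Six4, 5.66-fold for Six5 and 1.82-fold for Eya3, while the lowest values of Six2, Six3 and Six6 rest on 3 recovered fragments or fewer.

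Whether levels followed location was tested with limma over the retro-orbital, cheek and meninges tumors. Of the 14745 genes that reached 1 RPKM in at least 3 of these 10 tumors, 6 differed between locations at an adjusted p under 0.05 (0.0407%), and none of the 7 Six-family and Eya genes among them did. Six2 and Six3 did not reach that level and were not tested. At an unadjusted p under 0.05, 2 of the 7 stood out, Six5 and Eya1, against 14.3% of all genes tested. No member passed in any of the 3 comparisons of location pairs, in which 0.0271% (cheek against retro-orbital), 0.0203% (meninges against retro-orbital) and 0.0475% (meninges against cheek) of genes did. The median difference of the 7 on the log2(RPKM + 1) scale was 0.07, 0.29 and 0.38 in these comparisons, beside -0.02, 0.13 and 0.16 for all genes tested.

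**Figure D3:**
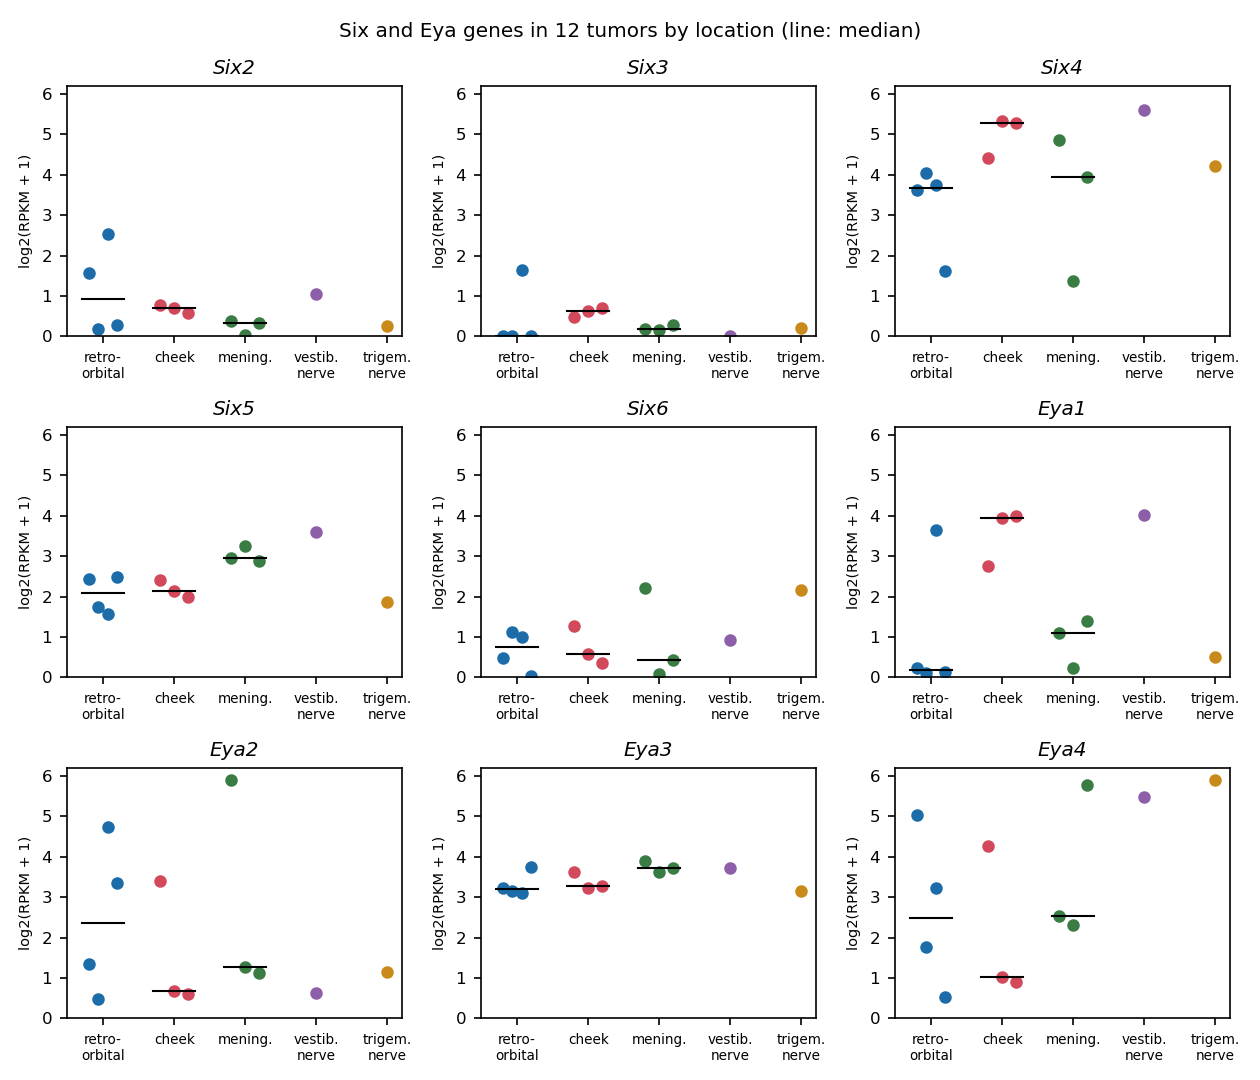
Each panel plots log2(RPKM + 1) of 1 gene (y axis) by tumor location (x axis), with 1 point per tumor and a line at the median of locations with more than 1 tumor. Six5 is higher in the 3 meninges tumors than in the retro-orbital and cheek tumors, Eya1 is high in the cheek tumors and in retro-orbital tumor 3, and Eya2 and Eya4 spread widely within locations.

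Six5 was higher in the meninges tumors, with 6.79, 8.46 and 6.38 RPKM. The retro-orbital tumors had 4.39, 2.34, 1.96 and 4.60 RPKM, and the cheek tumors 4.28, 3.37 and 2.97 RPKM. The meninges tumors therefore did not overlap with either group, a pattern that 3.13% of all genes tested showed, and Six5 was the member that showed it. No member stood wholly below in meninges (1.03% of genes), above or below in cheek (2.56% and 3.39%), or above or below in the retro-orbital tumors (0.631% and 0.8%). The mean difference of log2(RPKM + 1) was 0.97 ± 0.29 (SE) from the retro-orbital tumors and 0.86 ± 0.31 (SE) from the cheek tumors, but Six5 did not pass across all genes (limma, F test adjusted p = 0.288, unadjusted 0.0176, exact permutation p over 4200 labellings 0.0233). After quantile normalization the difference from the cheek tumors was 0.51 and the unadjusted F test p 0.0723 (limma), and with cheek tumors 2 and 3 averaged the adjusted p was 0.683. With tumors whose identifiers begin alike as blocks, an alternative chosen after seeing the data, Six5 passed (limma, adjusted p = 0.0290), but so did 2802 of 14745 genes (19%). The vestibular nerve tumor had the highest value of the 12 (11.1 RPKM) and the trigeminal nerve tumor had 2.63 RPKM. Summed RPKM of 6 Schwann cell markers was also higher in the meninges tumors (50.3 to 88.7) than in the retro-orbital (10.3 to 31.6) and cheek tumors (10.3 to 14.2), while that of 7 astrocyte and oligodendrocyte markers was 129 to 397 in the meninges tumors, 13.4 to 279 in the retro-orbital tumors and 17.4 to 27.4 in the cheek tumors. Their part in the Six5 values was not tested.

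Eya1 was high in the cheek tumors, at 5.78, 14.5 and 14.9 RPKM. Of the retro-orbital tumors, tumor 3 had 11.5 RPKM and the others 0.170, 0.0705 and 0.0949 RPKM. The meninges tumors had 1.15, 0.175 and 1.62 RPKM. On the log2(RPKM + 1) scale the cheek tumors exceeded the retro-orbital tumors by 2.54 ± 0.84 (SE), and the meninges tumors differed from the cheek tumors by -2.66 ± 0.90 (SE), with an adjusted p of 0.307 in the limma F test (unadjusted 0.0224, exact permutation p = 0.0624). Without retro-orbital tumor 3, Eya1 passed (limma, adjusted p = 0.0342), in a fit that called 56 of 14445 genes (0.388%). It also passed with blocks for tumors whose identifiers begin alike (limma, adjusted p = 0.0278, among 19% of genes), and over all alternatives tried the adjusted p ran from 0.0278 to 0.693. Cheek tumors 2 and 3 had nearly equal values, and with their mean counted as 1 tumor the adjusted p was 0.685 (limma). Outside these locations, Eya1 was 15.2 RPKM in the vestibular nerve tumor and 0.424 RPKM in the trigeminal nerve tumor.

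Six4 had 20.2, 39.3 and 38.0 RPKM in the cheek tumors, 11.2, 15.6, 12.4 and 2.05 RPKM in the retro-orbital tumors and 28.1, 1.59 and 14.5 RPKM in the meninges tumors. Meninges tumor 1 lay among the cheek values, so the cheek tumors did not stand apart from both other locations. The difference of cheek from retro-orbital tumors was 1.75 ± 0.82 (SE) on the log2(RPKM + 1) scale and did not pass (limma, adjusted p = 0.436; F test adjusted p = 0.438, exact permutation p = 0.192). It was 1.60 with cheek tumors 2 and 3 averaged (F test adjusted p = 0.724 in limma) and 0.48 with the identifier blocks (0.836). The trigeminal nerve tumor had 17.8 RPKM.

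Eya2 and Eya4 each reached high levels in single tumors of different locations. Eya2 had 1.55, 0.382, 25.9 and 9.17 RPKM in the retro-orbital tumors, 9.53, 0.611 and 0.522 RPKM in the cheek tumors and 58.5, 1.43 and 1.18 RPKM in the meninges tumors. Eya4 had 32.1, 2.39, 8.29 and 0.450 RPKM in the retro-orbital tumors, 18.1, 1.05 and 0.868 RPKM in the cheek tumors and 4.81, 3.97 and 54.3 RPKM in the meninges tumors. In each location the range overlapped with those of the other locations (limma, F test adjusted p = 0.83 for Eya2 and 0.749 for Eya4). The nerve tumors were both high in Eya4, at 43.9 RPKM (vestibular) and 58.4 RPKM (trigeminal), and low in Eya2, at 0.536 and 1.23 RPKM. Cheek tumor 1 and meninges tumor 1, whose identifiers begin alike, differed in these genes, with 9.53 and 58.5 RPKM of Eya2 and 18.1 and 4.81 RPKM of Eya4.

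Eya3 had 13.9, 11.3 and 12.3 RPKM in the meninges tumors, 8.37, 7.90, 7.63 and 12.4 RPKM in the retro-orbital tumors and 11.3, 8.37 and 8.65 RPKM in the cheek tumors, with an adjusted p of 0.449 in the limma F test. Retro-orbital tumor 4 lay within the meninges range, as did cheek tumor 1 (11.332 RPKM against a lowest meninges value of 11.314 RPKM).

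The remaining Six-family genes were low. Six6 reached 1 RPKM in 5 tumors, with 3.61 RPKM in meninges tumor 1, 3.50 RPKM in the trigeminal nerve tumor and 1.41, 1.19 and 1.01 RPKM in cheek tumor 1 and retro-orbital tumors 2 and 3 (limma, F test adjusted p = 0.940). Six2 reached it in 3 tumors, retro-orbital tumors 3 (4.77 RPKM) and 1 (1.94 RPKM) and the vestibular nerve tumor (1.09 RPKM). Six3 reached it only in retro-orbital tumor 3, at 2.12 RPKM, a value that rests on 445 recovered fragments. It was listed at 0 in 4 tumors, where 3 fragments would be worth 0.0198 to 0.0301 RPKM, so that retro-orbital tumor 3 was at least 70.3-fold higher (3 fragments per tumor as the floor, counting error only). The other 7 tumors had 0.124 to 0.617 RPKM. Of these, the cheek tumors had 0.383, 0.550 and 0.617 RPKM and the meninges tumors 0.128, 0.124 and 0.214 RPKM. Retro-orbital tumor 3 thus had the highest Six2 and Six3 values of the 12 and the second of Eya2.

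Correlations across the 12 tumors were computed for the 28 pairs of the 8 genes that reached 1 RPKM in at least 3 tumors, on log2(RPKM + 1) with 100000 permutations. The pair that passed was Six5 and Eya3, with Pearson's r = 0.82 (p = 0.00155, adjusted p = 0.0434) and Spearman's rho = 0.82 (p = 0.00202, adjusted p = 0.0566, permutation tests). Without the vestibular nerve tumor and retro-orbital tumor 3, those farthest from the Six5 median, r was 0.81. The adjusted p rose above 0.05 when any of 8 tumors was left out (retro-orbital 2 or 3, any cheek tumor, meninges 3 or either nerve tumor; r from 0.79 to 0.84, adjusted p up to 0.128, permutation tests). Centred on the location means in 10 tumors, r was 0.62 (adjusted p = 0.266), so the relation did not pass within locations. It was lost as well after quantile normalization (r = 0.75, adjusted p = 0.125) and with cheek tumors 2 and 3 averaged (r = 0.82, adjusted p = 0.102, permutation tests).

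Six4 and Eya1 had r = 0.68 (p = 0.0129, adjusted p = 0.180) and rho = 0.73 (p = 0.00964, adjusted p = 0.135, permutation tests), with r = 0.65 when meninges tumor 2 and retro-orbital tumor 4 were left out. Both genes were highest in the vestibular nerve tumor and cheek tumors 2 and 3. Retro-orbital tumor 2, with 15.6 RPKM of Six4, and the trigeminal nerve tumor, with 17.8 RPKM, had 0.0705 and 0.424 RPKM of Eya1. The other 26 pairs had adjusted p of 0.891 or more for r, and Eya1, Eya2 and Eya4 showed no relation to each other that passed.

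**Figure D4:**
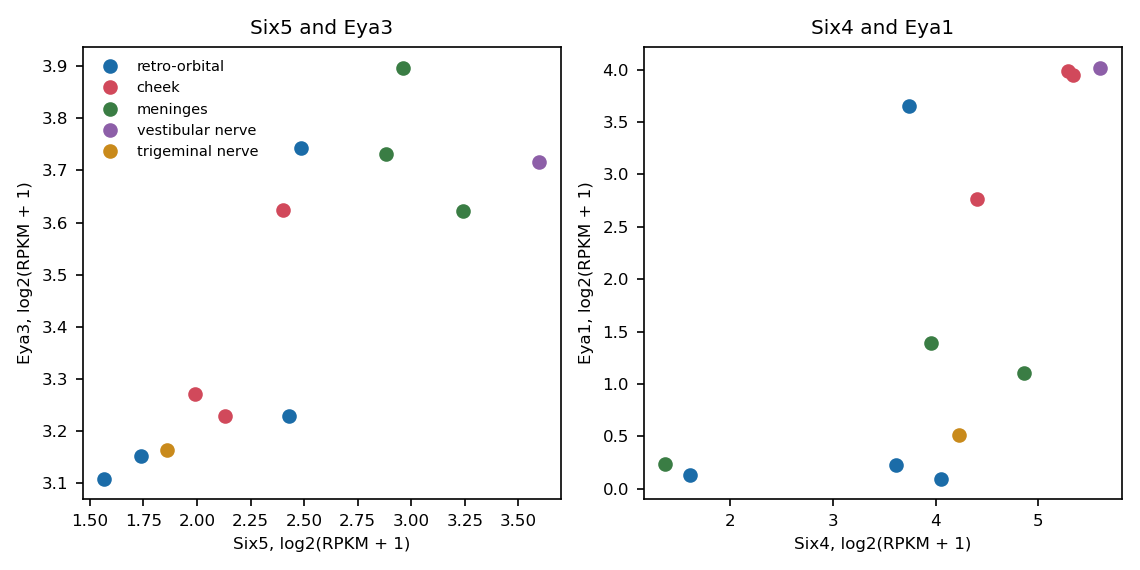
Left, Eya3 against Six5, and right, Eya1 against Six4, both as log2(RPKM + 1), with 1 point per tumor colored by location. The left panel shows the pair with r = 0.82, and the right panel the pair with r = 0.68, in which 2 tumors with low Six4 are at the lower left.

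Markers of other cell types were set beside these genes, since muscle, sensory organs and nerve express Six-family or Eya genes themselves. The photoreceptor factors Crx and Nrl were near 0, at most 0.0884 and 0.133 RPKM. The olfactory marker Omp was at most 0.581 RPKM, the hair cell gene Otof at most 0.243 RPKM, the otic matrix gene Tectb at most 0.0400 RPKM, and the lens genes Cryaa and Crygs at most 0.894 and 3.75 RPKM. Of these lists, 1 of 9 retina genes, 2 of 7 lens genes, 2 of 7 inner ear genes and 3 of 6 olfactory genes reached 1 RPKM in at least 3 tumors. Among those that did were Myo7a of the inner ear list (1.60 to 13.2 RPKM) and Cryba1 of the lens list (0.846 to 3.46 RPKM). Adcy3 (4.07 to 11.8 RPKM) and Gnal (0.774 to 4.49 RPKM) of the olfactory list did so too. The highest gene of each list was Gng13 for the olfactory epithelium (105 RPKM, meninges tumor 1), Coch for the inner ear (46.8 RPKM, meninges tumor 3), Bfsp1 for the lens (3.78 RPKM, meninges tumor 3) and Rcvrn for the retina (1.28 RPKM, retro-orbital tumor 2). Skeletal muscle genes were present, all 10 of the list reaching that level, and their summed RPKM ran from 15.9 to 615, with Acta1 highest (196 RPKM, cheek tumor 2). The neuron list summed to 13.9 to 168 RPKM, with Stmn2 highest (150 RPKM, retro-orbital tumor 1), and the arachnoid and meninges list to 275 to 1512 RPKM. Gfap was the highest of the astrocyte and oligodendrocyte list (260 RPKM, meninges tumor 3).

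The correlations of Six4 and Eya1 with leukocyte markers were negative but did not pass after adjustment. The summed RPKM of Ptprc, Cd68, Aif1, Cd3e, Cd79a and Csf1r ran from 92.3 in the vestibular nerve tumor to 441 in retro-orbital tumor 2, with 120 to 153 in the cheek tumors, 156 to 441 in the retro-orbital tumors and 164 to 280 in the meninges tumors. Over the 12 tumors its log2 value had r = -0.76 with Eya1 (p = 0.00385, rho = -0.86 with p = 0.000660) and r = -0.69 with Six4 (p = 0.0140, rho = -0.70 with p = 0.0148, permutation tests). Adjusted over the 80 pairs of 8 genes and 10 marker lists, these were 0.103 (rho 0.0528) and 0.281 (rho 0.296). None of the 80 passed, the other low values being Eya3 with the lens list (r = 0.78, rho = 0.65, adjusted p = 0.103 and 0.406) and Eya4 with the arachnoid and meninges list (r = 0.76, rho = 0.76, adjusted p = 0.103 and 0.165, permutation tests). Without the 2 tumors farthest from the list's median, r was -0.72 for Eya1 and -0.80 for Six4 with leukocyte markers. The highest markers of these lists were Cd68 (244 RPKM, retro-orbital tumor 2) and Ogn (1334 RPKM, vestibular nerve tumor). What part other cells had in the values of Six4, Eya1, Eya3 and Eya4 was not tested.

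**Figure D5:**
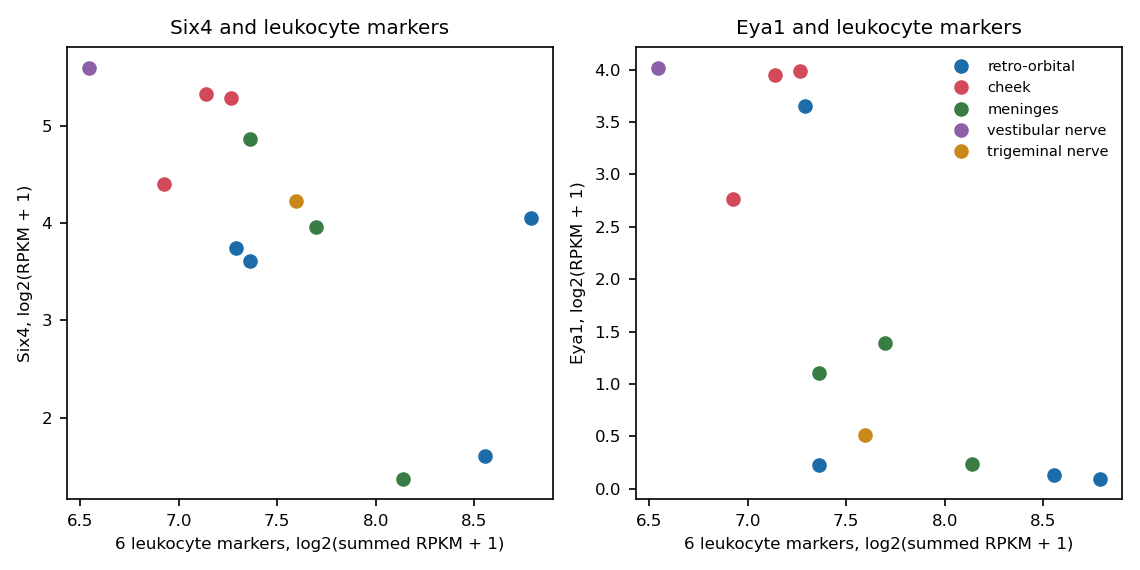
Six4 (left) and Eya1 (right) as log2(RPKM + 1) against log2 of the summed RPKM of 6 leukocyte markers plus 1, with 1 point per tumor colored by location. The points fall from upper left to lower right, with r = -0.69 and -0.76 over the 12 tumors.

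The other lists of the network had no gene that differed between locations in limma, and counts at an unadjusted p under 0.05 stood at 2 of 12 partners and cofactors, 0 of 5 placode genes, 1 of 4 eye field genes, 0 of 8 muscle and kidney genes, 1 of 6 growth genes and 2 of 5 DNA damage genes, beside 14.3% of all genes tested. The median SD of log2(RPKM + 1) was 0.50 for the 13 of 17 cofactors that reached 1 RPKM in at least 3 tumors, against 0.48 for all such genes. The Pax genes Pax3 and Pax6, named here after their values were seen, ranged from 0.159 to 43.1 RPKM and from 0.0333 to 16.5 RPKM. Gnai2, a G protein subunit, had a median of 122 RPKM (97.7 to 173, F test adjusted p = 0.346 in limma). The Groucho family corepressors Aes and Tle3, which bind Six-family proteins, had medians of 95.1 RPKM (50.5 to 136) and 12.7 RPKM (7.57 to 28.4), and Mcrs1 had 14.5 RPKM (10.7 to 20.8).

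Most placode and cranial sensory genes were near 0, since 5 of 21 reached the level needed for the test and the median over the list was 0.0285 RPKM. Sox2, a factor of neural and sensory progenitors, was the highest by median, at 2.51 RPKM, with 24.9 RPKM in retro-orbital tumor 3. Tbx1, an otic and pharyngeal factor, followed with 1.47 RPKM (highest 3.93, cheek tumor 1), then Gata2 with 1.29 RPKM (highest 9.34, cheek tumor 1) and Gata3, a factor of the inner ear, with 1.02 RPKM (highest 3.53, vestibular nerve tumor). The highest single value of the list was Isl1, a factor of sensory and motor neurons named here after its values were seen, with 37.4 RPKM in the vestibular nerve tumor and a median of 0.304 RPKM. Among eye field and forebrain genes, Mitf of the pigment epithelium had a median of 3.06 RPKM (1.90 to 10.1), Sfrp1, a secreted Wnt inhibitor, 1.83 RPKM (highest 22.8, meninges tumor 2), Foxd1 1.58 RPKM (highest 34.3, meninges tumor 1) and Lhx2 0.962 RPKM. Lhx2 had location medians of 0.196 (retro-orbital), 0.609 (cheek) and 3.82 RPKM (meninges), with an adjusted p of 0.222 in the limma F test.

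Genes listed with the Six-family and Eya genes for muscle and kidney had a median SD of 1.14 on the log2(RPKM + 1) scale. This was over the 8 of 12 that reached 1 RPKM in at least 3 tumors, against 0.48 for all such genes. Osr1, a kidney and limb factor, had a median of 17.5 RPKM (7.58 to 155), and Itga8, an integrin of the metanephric mesenchyme, 3.30 RPKM but 345 RPKM in retro-orbital tumor 2. Cited1 had a median of 2.94 RPKM (highest 59.1, cheek tumor 1) and Tbx18 2.54 RPKM (highest 36.7, cheek tumor 2). Of the growth genes, ezrin (Ezr), a linker of membrane and actin, had a median of 226 RPKM (29.6 to 412), Ccnd1, which encodes cyclin D1, 77.1 RPKM (53.9 to 202), and Ccna2, which encodes cyclin A2, 41.1 RPKM (19.1 to 65.5). Myc had a median of 28.3 RPKM and Fgf10 3.87 RPKM (highest 42.3, vestibular nerve tumor). Ccna1, Mycn and Fgf8 of this list were low, with medians of 0.529, 0.401 and 0.0750 RPKM. Slc12a2, an ion cotransporter, had a median of 52.5 RPKM, with location medians of 12.1 (retro-orbital), 160 (cheek) and 51.6 RPKM (meninges) and an adjusted p of 0.239 in the limma F test. Of the genes of the DNA damage response in which the Eya phosphatase acts, H2afx, the histone whose tyrosine mark Eya removes, had a median of 25.3 RPKM (12.9 to 51.4, adjusted p = 0.310), the kinase gene Baz1b 48.6 RPKM (27.1 to 68.0), Atm 13.0 RPKM (7.54 to 16.4) and Mdc1 9.45 RPKM (5.91 to 13.6, adjusted p = 0.329 in limma).

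For each of the 8 genes, the genes with the most alike pattern over the 12 tumors were found among the 15040 by Pearson's r of log2(RPKM + 1), as a description without a test. Eya4 was followed most closely by Nap1l3 (r = 0.96), Adcyap1, which encodes the neuropeptide PACAP (0.94), and the cadherin gene Cdh10 (0.93). For Eya3 they were the deubiquitinase gene Usp21 (0.96), the peroxisome gene Pex6 (0.95) and the tRNA methyltransferase gene Trmt2a (0.94), and for Six5 the kinetochore gene Ska2, the endonuclease gene Ankle1 and the SWI/SNF subunit gene Smarcd3 (0.96, 0.96 and 0.95). Eya2 was nearest to the kininogen gene Kng1 (0.93), the Wnt pathway factor Tcf7 (0.92) and the vitamin D receptor gene Vdr (0.91). For Eya1 the kinesin gene Kif21a (0.89), St5 (0.87) and the cytokine gene Tnfsf11 (0.86) came first.

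Six4 was close to Mnat1 (r = 0.92), which encodes a part of the CDK-activating kinase, and to the adhesion gene Clmp (0.90). Mnat1 is also its neighbor on chromosome 12, with 10.26 kb between them (73123717 to 73273988, plus strand). Six6 was nearest to Dnajc17 (0.90), Fam221a (0.88) and the row of Mir6911 (0.87), and Six2 to the secreted glycoprotein gene Stc2 (0.91) and the row of Mir7655 (0.91). The miRNA genes lie within Dazap1 and Mllt10 on the same strand, so reads of the host transcript may be counted there. Each of the 8 genes had such partners at r of 0.855 or more, and with 12 tumors and 15040 genes likeness was not tested.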

How the data were processed

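Total RNA of 12 tumors was depleted of ribosomal RNA (RiboZero Gold), made into TruSeq Stranded libraries and sequenced as a single pool. The authors aligned the reads to mm10 with STAR, used HTSeq to count uniquely mapped fragments per RefSeq gene, and the deposited files hold 1 RPKM value for each gene of a tumor. The gene length and read total used for RPKM are not given in the sources used here. Fragment totals were recovered from RPKM steps, with values called whole within 0.02 fragments plus 6e-05 of the number, at the smallest gene length that makes all 12 values whole. RPKM values are not counts, so log2(RPKM + 1) was tested with limma 3.58.1 in R 4.3.3 (trended and robust prior variance, Benjamini-Hochberg adjustment at 0.05), with at least 1 RPKM in 3 of the 10 fitted tumors. This scale understates the change of low genes. The nerve tumors, 1 each, entered no test by location. Permutation tests were run in Python 3.11.15 with numpy 2.4.6. In simulated data with 200 changed genes among 14745, the F test recovered 80%, and 4.76% of its calls were unchanged genes. The changed genes were raised by 3 log2 units in the meninges tumors, with errors independent between tumors. Smaller differences and tumors that resemble each other were not simulated, so the 80% does not apply to them.

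The genes, lists and tests were chosen with earlier results of these data known. Named are the 9 genes, genes of each list that passed and up to 4 others with the highest median, the top markers, and the 3 genes most alike to each member. Also named, outside these rules, are Pax3, Pax6, Isl1, Myc, Fgf10, Ccna1, Mycn and Fgf8, and sensory markers that were not the highest of their list. Some genes that met these rules are not reported here. The pseudocount, filter, normalization, prior variance and tumors used were varied. After seeing the data, a limma fit with tumors whose identifiers begin alike as blocks (duplicateCorrelation) was added. Positions are from GENCODE M21. Of the 9 genes, 7 matched a RefSeq promoter by symbol.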

Additional observations from a re-analysis of the deposited data

Results flagged for a closer look

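In the group of 4 retro-orbital tumors, 3 of the 9 genes had a tumor far from the other three by Dixon's test, that is, with a gap to the nearest tumor that takes up most of the group's range of RPKM. Chance gives this in about 1 in 20 groups of normal values, and 12.5% of 15018 genes met it here on the RPKM scale, so the count is to be read against that share. Six3 was at 2.12 RPKM in tumor 3 and listed at 0 in the others (gap of 1 times the range, which equal values of 0 make certain). Of the 12 tumors, it reached 1 RPKM in that tumor alone, so it falls short of 1 RPKM in at least 3 tumors. Eya1 was at 11.5 RPKM in tumor 3, with the others at 0.0705 to 0.170 RPKM (gap 0.991 of the range), and Eya3 was at 12.4 RPKM in tumor 4, with the others at 7.63 to 8.37 RPKM (gap 0.844 of the range). Tumor 3 also had the most recovered fragments of the 12 tumors. Tumor 4 had the most Ptprc, a leukocyte gene (51.5 RPKM), but the summed RPKM of the 6 leukocyte markers was highest in tumor 2 (441). Over the 12 tumors Eya3 had r = -0.06 and rho = 0.01 with that sum. The part of fragment totals and leukocytes in these values was not tested.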

How the results depend on the processing

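The number of genes called over all genes depended on the tumors included. With 1 tumor left out at a time, it ran from 0 to 198 for the F test (6 with all 10), from 0 to 147 for cheek against retro-orbital (4), from 0 to 41 for meninges against retro-orbital (3) and from 0 to 527 for meninges against cheek (7), the highest counts but that of 41 being without cheek tumor 1 and that of 41 without retro-orbital tumor 3. With cheek tumors 2 and 3 averaged all were 0. Without the filter the counts were 10, 2, 7 and 18, and without trend and robust prior variance 19 (F test), 6 (meninges against retro-orbital) and 22 (meninges against cheek), the last comparison giving 13 after quantile normalization and 2 with a pseudocount of 0.1. The number of Six-family and Eya genes called by location was 0 with each of these changes except without retro-orbital tumor 3, with 1 (Eya1, in a fit that called 56 of 14445 genes), a range of 0 to 1. Blocks for tumors whose identifiers begin alike, added after seeing the data, gave 2802 genes for the F test, 2 for cheek against retro-orbital and 4243 for meninges against cheek, with 2 Six-family and Eya genes (Six5 and Eya1). Their correlation of 0.93 was estimated from 2 pairs, whose deviations from the location means correlated across genes at 0.23 (cheek 1 and meninges 1) and 0.58 (cheek 2 and 3). Pairs of genes correlated across tumors numbered 1 with all tumors, 0 to 2 with 1 tumor left out, and 0 after quantile normalization (Six5 and Eya3, r = 0.75), with cheek tumors 2 and 3 averaged (r = 0.82) and centred on location means, and Six2 with Eya1 was the second pair without retro-orbital tumor 1 (r = 0.66). Pairs of levels called within tumors numbered 9 to 11 with 1 tumor left out. The difference between Eya1 and Eya2, which did not pass, ran from -0.55 to 0.20, and that between Eya3 and Eya4 from -0.045 to 0.49. Of 407 alternative values for single genes and pairs, 377 kept their side of the threshold and direction. The cause of these changes was not tested. No paired analysis was possible because the labels give no replicate numbers that run across locations.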
